A study of Mus musculus with 2 samples.

Results

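The Trim genes encode tripartite motif proteins, most of them E3 ubiquitin ligases. They were taken as every protein-coding gene of GENCODE release M21 whose symbol is Trim followed by a number and at most 1 letter, which gave 68 of 21911 protein-coding genes. The data were ATAC-seq peaks of neutrophils from the peripheral blood of C57BL/6J adults, 5 to 6 weeks old, in 1 group of 2 libraries, replicates 1 and 2, each made from 50000 cells. ATAC-seq inserts adapters into accessible DNA with a transposase, so that peaks mark open chromatin. The labels give no treatment and no purification, both libraries cite the same donor record, and sex was not collected. Nothing names separate mice, so the spread between the libraries may be technical. No library of another cell type or condition was included, so the Trim genes are set beside all protein-coding genes and no test between groups of samples was possible.

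TRIM proteins share a RING domain, B-box zinc fingers and a coiled coil, followed by a C-terminal domain that chooses the substrate. The RING domain takes ubiquitin from an E2 enzyme and passes it to a target, which can be degraded or, with other chain types, activated. Many TRIM proteins are induced by interferon, restrict viruses or tune the sensors that start interferon and NF-kB signalling, while others serve muscle, neurons, red cell precursors or germ cells.

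A gene was called open where a peak passing the irreproducible discovery rate (IDR) threshold overlapped, in both replicates, a window reaching 1 kb to each side of an annotated start site of the gene. The signal value used below is the authors' own score of each peak, with no stated definition, and serves here to describe and rank regions within a list. Replicate 1 held 34409 IDR peaks and replicate 2 held 18367, and the read depth behind them is unknown.

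The labelled cell type was checked on marker genes. Of 12 neutrophil markers, 3 were open in both replicates (S100a9, Mmp8 and Il1r2), 6 in replicate 1 alone, and Ly6g, Ngp and Camp in neither. Of 8 B cell markers, 6 were open in both (Cd79a, Ms4a1, Pax5, Ebf1, Cr2 and Fcer2a) and the other 2 in replicate 1 alone. Of 6 T cell markers 1 was open in both, as was 1 of 5 platelet markers, against 0 of 6 monocyte and 0 of 6 erythroid markers. The open neutrophil markers had signal values of 7.36 to 13.9, and the open B cell markers 7.99 to 14.01 apart from the complement receptor Cr2 with 23.7 and 17.0. Cd3d, the open T cell marker, had 16.9 and 17.8. B cell markers were thus open in a larger share than neutrophil markers in libraries labelled as neutrophils, and the part of other cell types in the results below was not tested.

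The promoters that carry the clearest pattern are those of the Trim5, Trim21 and Trim30 antiviral family on chromosome 7, shown here because related copies can be compared base by base. Sequences were read from the RefSeq genome of GRCm38.p6, each on the strand of its gene from 5′ to 3′. Capitals mark matches, on either strand, to any of 15 short motif strings. Those that occur below are the interferon-stimulated response element string GAAANNGAA (ISRE), the CCAAT box bound by NFY, the PU.1 type ETS string GAGGAAGT, the CEBP string TTGCNNAA, the RUNX string TGTGGTT and the CRE string TGACGTCA. In the Trim5 stretches the RUNX and ISRE strings overlap, and in Trim21 and Trim26 a pair of ISRE strings overlap, so that they appear as 1 capital run. A match describes letters only and is no evidence of a bound factor. The Trim5, Trim12a and Trim12c stretches lie on the minus strand at chr7:104288129-104288244, chr7:104315464-104315574 and chr7:104353363-104353468, and all 3 genes were open.
Trim5: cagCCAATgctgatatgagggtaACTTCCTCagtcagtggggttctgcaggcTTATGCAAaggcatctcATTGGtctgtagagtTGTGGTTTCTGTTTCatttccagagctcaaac
Trim12a: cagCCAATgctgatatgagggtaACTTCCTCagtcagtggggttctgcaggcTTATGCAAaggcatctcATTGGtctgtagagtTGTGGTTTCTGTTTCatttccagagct
Trim12c: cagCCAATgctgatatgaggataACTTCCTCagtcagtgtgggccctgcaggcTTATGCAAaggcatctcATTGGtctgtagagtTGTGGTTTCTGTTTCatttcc

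The 4 Trim30 stretches also lie on the minus strand, at chr7:104465213-104465288 for Trim30a, chr7:104507874-104507949 for Trim30d, chr7:104369887-104369965 for Trim30b and chr7:104400899-104400974 for Trim30c. Trim30a, Trim30d and Trim30b were open and Trim30c was not.
Trim30a: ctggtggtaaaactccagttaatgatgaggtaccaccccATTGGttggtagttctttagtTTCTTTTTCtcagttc
Trim30d: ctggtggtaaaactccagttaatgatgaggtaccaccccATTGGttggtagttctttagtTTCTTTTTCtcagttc
Trim30b: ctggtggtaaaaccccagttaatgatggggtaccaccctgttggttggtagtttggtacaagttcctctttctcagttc
Trim30c: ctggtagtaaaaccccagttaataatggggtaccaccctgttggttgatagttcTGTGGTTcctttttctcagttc

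Trim21 at chr7:102565447-102565476 (minus strand), Trim34a at chr7:104244458-104244487 (plus strand) and Trim25 at chr11:88999384-88999413 (plus strand) held the ISRE string just downstream of the start site, and Trim26 at chr17:36836979-36837114 (plus strand) held it upstream.
Trim21: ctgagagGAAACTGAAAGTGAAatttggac
Trim34a: ggtttggagtTTCAGTTTCttttctctgca
Trim25: gcccctcctgTTCAGTTTCgattccttcct
Trim26: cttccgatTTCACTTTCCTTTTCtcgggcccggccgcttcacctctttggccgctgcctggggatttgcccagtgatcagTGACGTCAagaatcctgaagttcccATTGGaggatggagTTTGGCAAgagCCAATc

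As a whole the Trim genes were open in both replicates about as often as all genes, and somewhat more often in some lists. Groups of them with different roles differed widely. Of the 68 Trim genes, 27 (39.7%, 95% Wilson interval 28.9 to 51.6) were open in both replicates, against 39.8% of all protein-coding genes. Counting replicate 1 by itself, 36 Trim genes (52.9%) were open against 47.1% of genes, and counting replicate 2 by itself, 27 (39.7%) against 40.3%. Each Trim gene open in replicate 2 was also open in replicate 1, and 9 were open in replicate 1 only. In the conservative list, made from both replicates, 38 (55.9%) had a promoter peak against 46.7% of genes. In the less strict lists of both replicates, 40 (58.8%) had one against 49.8%. No list held a promoter peak for 27 Trim genes (39.7%), against 45.1% of genes.

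**Figure D1:**
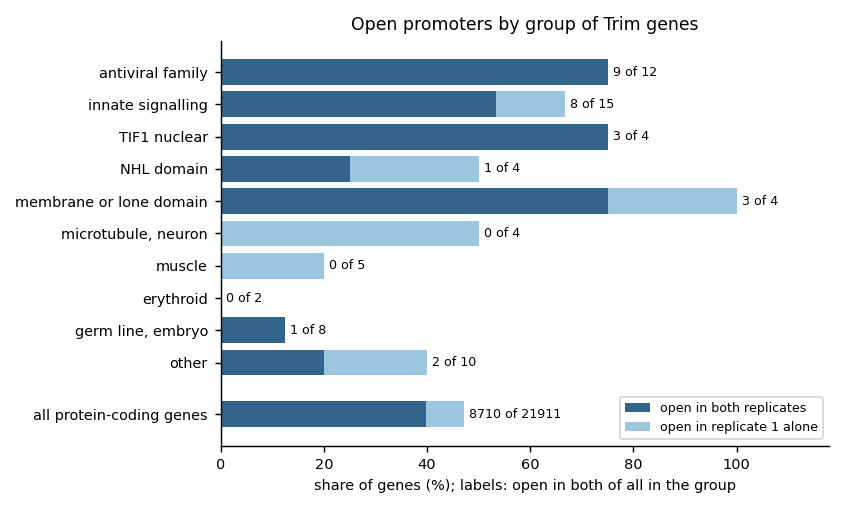
Share of genes in each group of Trim genes (percent, horizontal axis) with an open promoter in both replicates (dark) or in replicate 1 alone (light), with all protein-coding genes at the bottom. The antiviral family has 9 of 12 genes open in both replicates, and the muscle, erythroid and microtubule and neuron groups have none.

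CpG-rich promoters, which are open in most cell types, were less common among the Trim genes. A promoter was called CpG-rich where its sequence, 500 bp to each side of the 5′-most start site, reached a GC share of 0.5 and an observed-to-expected ratio of CpG of 0.6. This held for 23 of 68 Trim genes (33.8%), against 44.4% of all genes. Among CpG-rich promoters, 13 of 23 Trim genes (56.5%) were open, against 66.8% of genes. Among the other promoters, 14 of 45 Trim genes (31.1%, interval 19.5 to 45.7) were open, against 18.2% of genes. The antiviral family held 8 of those 14. In that CpG-poor class, 8 of 11 members of the family (72.7%) and 6 of 34 Trim genes outside it (17.6%) were open. The CpG class was read at the 5′-most start site, while a peak at any start site counted as open. Of those 6, Trim28 and Trim44 had no peak at the 5′-most start site in either replicate. The family's near-identical copies count separately in these shares. The groups were drawn up with earlier results of these data known, so these shares are descriptions.

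In the antiviral family, 9 of 12 genes were open in both replicates. Near-identical copies count separately here, although their calls are not independent. The count was also 9 with either replicate by itself, while 10 had a peak in the conservative list. Trim21, a cytosolic antibody receptor that directs antibody-coated virus to the proteasome, had signal values of 24.6 in replicate 1 and 21.95 in replicate 2 (mean 23.3 ± 1.90, SD, n = 2), the highest mean of any Trim gene. That mean lies at percentile 99.7 of the 8710 genes open in both replicates. Trim30d had 22.6 and 22.7, at percentile 99.1 by the mean, and was the highest Trim gene in replicate 2. Trim30a, which restrains Toll-like receptor signalling to NF-kB in mice, had 21.9 and 19.3, at percentile 96.4. Ranked in each library by itself, these 3 promoters lay above 98.1% to 99.8% of open genes in replicate 1 and above 90.5% to 98.9% in replicate 2. Trim30a and Trim30d are identical over the stretch printed for them, which holds their summits, so their open calls, values and ranks are uncertain.

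The mouse relatives of the primate capsid-binding restriction factor TRIM5 followed. Trim12c had signal values of 19.4 and 19.2, Trim12a 15.95 and 17.1, and Trim5 12.5 and 17.5. Trim12c was the highest of these 3 in both replicates, while Trim5 and Trim12a changed places and Trim5 was the most variable (mean 15.0 ± 3.55, SD, n = 2). The sequence these 3 share, described below, makes their values and their order uncertain. Trim68, described in human cells as a cofactor of the androgen receptor, had 19.3 and 15.2. It is the family's only CpG-rich promoter that was open. Trim34a had 13.95 and 14.3, and Trim30b 13.3 and 13.6. The family's median of 17.3 over its 9 open genes compares with 11.3 over the 18 open Trim genes outside the family and with 13.7 over all open genes. Above that last median lay 8 of the 9 family promoters and 4 of the 18 others. Near-identical copies count separately among the 9.

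**Figure D2:**
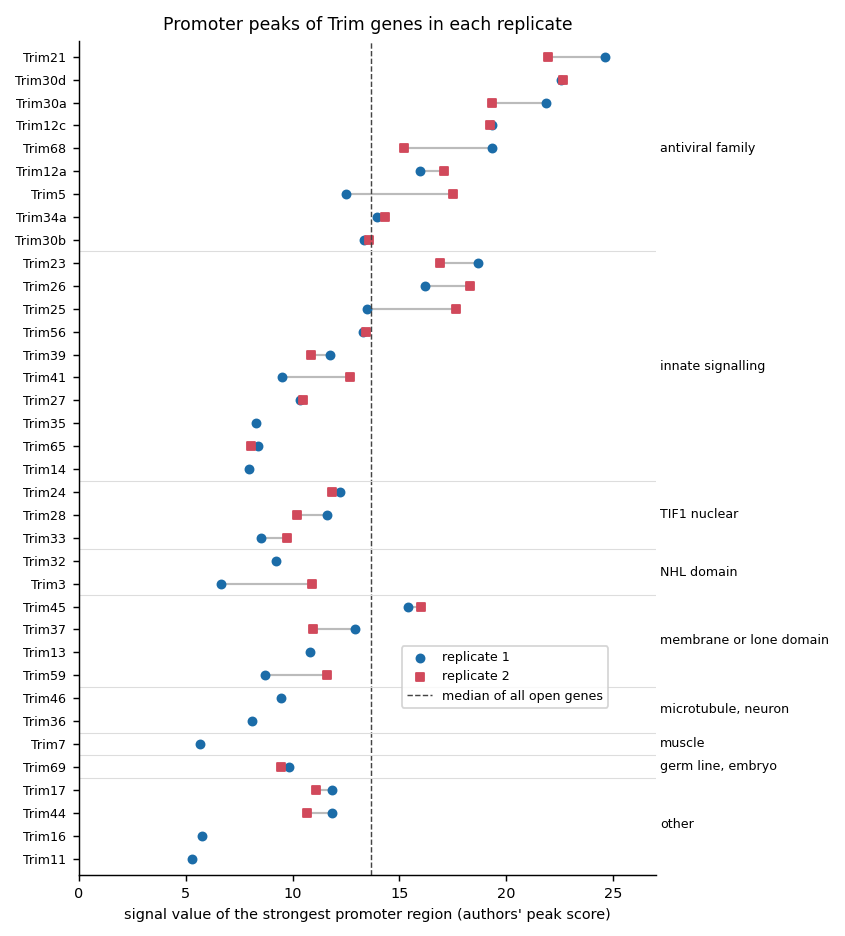
Signal value of the strongest promoter region of each Trim gene with an IDR peak (horizontal axis, the authors' peak score; blue circles replicate 1, red squares replicate 2, grey line their distance). The dashed line is the median of 13.7 over all genes open in both replicates: the means of 8 of the 9 antiviral family promoters lie right of it, and all TIF1 and NHL promoters lie left of it.

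The closest copies within the family were called open together, and more distant ones differed. Reads may be shared between the closest copies, so their joint calls cannot show that each copy was open. Over the stretch printed for Trim5, which is cut short near the start site for its copies, Trim12a matched Trim5 at 116 of 116 aligned bases and Trim12c at 111 of 116. Trim30d matched Trim30a at 76 of 76, Trim30b at 67 of 76 and Trim30c at 66 of 76. Trim30a and Trim30d kept an NFY string and an ISRE string there. Trim30b had none of the 15 strings and was open at signal values about midway among open genes (percentile 48.1), while Trim30c had a RUNX string and no IDR peak in either replicate. In the less strict lists Trim30c did have peaks, with values of 7.03 and 7.58. Trim34b, whose 600-base start-site window aligned to that of Trim34a over 36.5% of its length at 56.2% identity, had no peak in any list. Trim6 had only weak peaks, 5.86 in the conservative list and 6.13 and 4.96 in the less strict lists. How reads that map to several copies were handled is not given in the sources used here. Of the 31-base strings in the 500 bp on either side of the start site, 65.5% recurred elsewhere in the genome for Trim5, 57.2% for Trim12a, 26.3% for Trim30a, 26.6% for Trim30d and 65.3% for Trim34b. Reads of these copies cannot be told apart within such strings, so the calls and values of Trim5, Trim12a, Trim12c, Trim30a and Trim30d are uncertain. The absence of peaks at Trim34b is uncertain too.

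The family sits mostly in 1 stretch of 289 kb on chromosome 7, from Trim6 to Trim30d, which holds 10 Trim genes. Of these, 7 were open, and start sites without an IDR peak lay between open ones. Trim34b, where repeated sequence makes the absence of a peak uncertain, lies between Trim12a and Trim12c, and Trim30c lies between Trim30b and Trim30a. By contrast, a 61.0 kb stretch of chromosome 17 with Trim26, Trim15, Trim10, Trim40 and Trim31 had only Trim26 open. The Trim75, Trim61 and Trim60 cluster of chromosome 8 had 0 of 3 open.

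**Figure D3:**
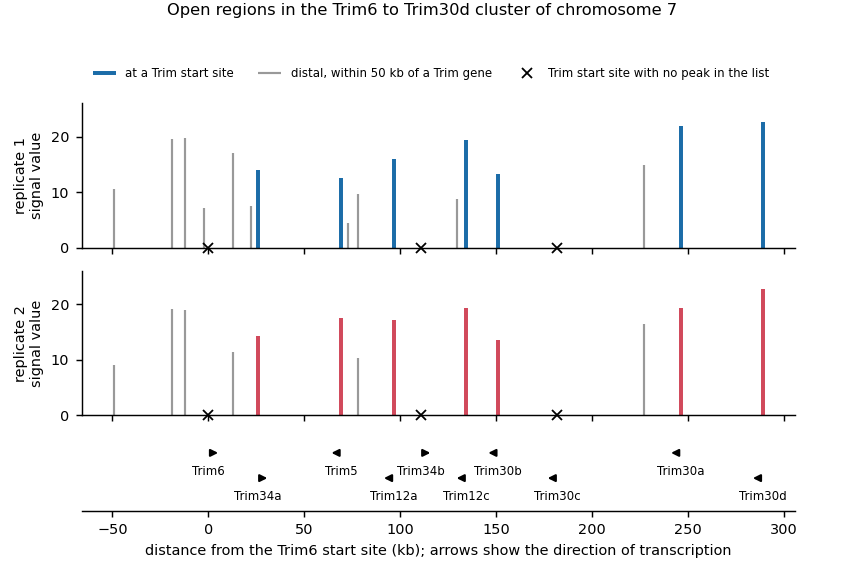
Open regions along the Trim6 to Trim30d cluster in replicate 1 (top) and replicate 2 (middle): distance from the Trim6 start site in kb against the authors' signal value. Thick bars stand at Trim start sites, grey bars are distal regions within 50 kb of a Trim gene, crosses mark the start sites of Trim6, Trim34b and Trim30c, which have no IDR peak, and arrowheads give the direction of transcription.

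Among the regulators of innate immune signalling, 8 of 15 were open in both replicates, 2 in replicate 1 alone and 5 in no list. The 8 make 53.3%, against 39.8% of all genes. CpG-rich promoters made up 9 of the 15, and 66.8% of CpG-rich genes and 18.2% of other genes were open. Trim23, a ligase with an ARF-type GTPase domain, had signal values of 18.7 and 16.9. Its start site is shared with Trappc13, which is transcribed the other way, so their accessibility cannot be told apart. Trim26 had 16.2 and 18.3. Trim25, the ligase that activates the RNA sensor RIG-I, had 13.5 and 17.7. Trim56, an interferon-induced ligase that acts on double-stranded RNA and DNA sensing, had 13.3 and 13.4. Trim23, Trim26 and Trim25 had means within the range of the antiviral family, and Trim56 lay just below the median of all open genes. The other 4 open members, Trim39, Trim41, Trim27 and Trim65, had values of 8.04 to 12.7. Trim65, which activates the RNA sensor MDA5, had the lowest mean of the 27 open Trim genes (values 8.37 and 8.04, mean at percentile 4.78), although Trim3 was lower in replicate 1. Trim14, an adaptor of the mitochondrial protein MAVS, had 7.96 in replicate 1 alone, and Trim35 had 8.30 in replicate 1 alone. Trim8, Trim31, Trim38, Trim40 and Trim62 had no promoter peak in any list.

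The nuclear TIF1 co-regulators were open at moderate values. Trim24 had 12.2 and 11.8, Trim28, the corepressor of KRAB zinc finger proteins, had 11.6 and 10.2, and Trim33, which acts with Smad proteins, had 8.53 and 9.72. Trim66, known mainly from testis, had no peak in any list. Of the membrane-anchored ligases and those with a lone C-terminal domain, Trim45 had 15.4 and 16.02, Trim37 had 12.9 and 10.9, and Trim59 had 8.72 and 11.6. Trim13, a ligase of the endoplasmic reticulum membrane, had 10.8 in replicate 1 alone. Among the ligases with an NHL domain, Trim3 had 6.66 and 10.9, and Trim32, mutated in a limb-girdle muscular dystrophy, had 9.21 in replicate 1 alone. Trim2 had 8.80 in the conservative list and no IDR peak of either replicate, and Trim71, a translational repressor of early embryos, had none in any list. Thus 7 genes of these 3 groups were open in both replicates, all but Trim45 below the median of all open genes.

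The groups named for muscle, neurons, red cells and germ cells were mostly closed. Of their 19 genes, 1 was open in both replicates (5.26%), against 39.8% of all genes. Only 3 of the 19 promoters were CpG-rich, and 18.2% of genes without a CpG-rich promoter were open. A further 3 were open in replicate 1 alone, which gives 4 of 19 in that replicate by itself, and 4 had a peak in the conservative list. The count moved to 5 in the less strict lists and 0 with peaks at or above the median signal value. Under these settings 49.8% and 30.4% of all genes were open. The muscle ligases Trim54, Trim55 and Trim63 of the MuRF group and the membrane repair protein Trim72 had no peak in any list, and Trim7, named for its binding to glycogenin, had 5.68 in replicate 1 alone. That peak had its summit 12461 bp downstream of the 5′-most start site, at another annotated start site. The window of the 5′-most start site is highly repeated, with 91.8% of its 31-base strings found elsewhere, but does not hold the peak. Among the microtubule-binding and neuronal members, Trim46, which organises the axon initial segment, had 9.47 and Trim36 8.08, both in replicate 1 alone. Trim46 shares its start site with the oppositely transcribed Krtcap2, so the peak cannot be given to either. Trim9 and Trim67 had peaks in the less strict lists only. The erythroid members Trim10 and Trim58 had no peak in any list, and the 6 erythroid markers were likewise closed. In the germ line group, Trim69 had 9.83 and 9.45, and Trim42, Trim43a, Trim43b, Trim43c, Trim60, Trim61 and Trim75 had no peak in any list. Repeated strings made up 58.3% to 73.6% of the Trim43 windows, so the absence of peaks there is uncertain.

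Of the 10 remaining Trim genes, 2 were open in both replicates. Trim17 had 11.8 and 11.1, at a region it shares with the histone gene Hist3h2a, and Trim44 had 11.8 and 10.7. Trim11 had 5.29 and Trim16 5.77, in replicate 1 alone. Trim15, Trim29, Trim47, Trim50, Trim52 and Trim80 had no peak in any list. All 9 Trim genes open in replicate 1 alone had a peak in the less strict list of replicate 2 and in the conservative list. Their signal values of 5.29 to 10.8 in replicate 1 lie below the Trim median of 12.9 there.

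The strength of the open Trim promoters was shared between libraries. Across the 27 open Trim genes the signal values of both replicates gave a Spearman rho of 0.880, a description across genes that are not independent, and 14 were higher in replicate 2 and 13 in replicate 1. The summits lay close to start sites: 21 of 27 in replicate 1 and 22 of 27 in replicate 2 were within 100 bp of the nearest annotated start site, and 21 and 23 lay upstream of it. For 25 of the 27 the open region was at the 5′-most start site. Trim28 and Trim44 were the exceptions, with summits 24976 and 6661 bp downstream of it in replicate 1, at other annotated start sites.

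The interferon string was found at start sites of most of the antiviral family. In the window from 250 bp upstream to 50 bp downstream of the 5′-most start site, 8 of 12 family members (66.7%) held the ISRE string. So did 14 of all 68 Trim genes (20.6%), against 8.48% of all genes. Of the 27 open Trim genes 10 held it (37.0%), against 7.50% of all open genes and 10.1% of those without a CpG-rich promoter. Of the 41 Trim genes not open in both replicates, 4 held it (9.76%): Trim14, Trim34b, Trim7 and Trim8. Trim8 holds it at -14 bp and has no peak within 1 kb of its start sites in any list. Open regions lay beyond that window, with summits at -1754 bp in replicate 1 and -1776 bp in replicate 2. Trim68 and Trim30b were open without the string. The string was close to the start site in Trim12c (-15), Trim12a (-18), Trim30a (-35), Trim30d (-40), Trim5 (-60), Trim34a (11), Trim21 (17 and 23) and Trim25 (18), as positions in bp of its first base. Outside the family it was also close in Trim17 (-3), which was open, and in Trim14 (-1), which was open in replicate 1 alone. Trim5, Trim12a and Trim12c are near-identical there, as are Trim30a and Trim30d, so these 5 matches are not independent.

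**Figure D4:**
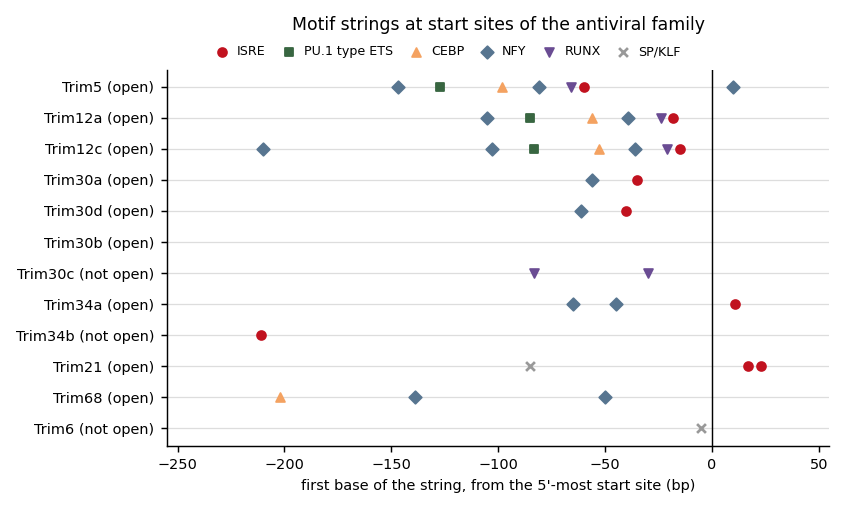
Positions of 6 kinds of motif string in the start-site windows of the 12 antiviral family genes, as bp from the 5′-most start site (vertical line) to the first base of the string. The same order of marks recurs in Trim5, Trim12a and Trim12c, red circles (ISRE) lie within about 60 bp of the start in 7 open genes, and Trim30b is open with no mark.

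At the summits themselves, 3 of 27 open Trim regions held the ISRE string in the 50 bp on either side (11.1% in each replicate), against 2.03% of all open promoter regions in replicate 1 and 1.86% in replicate 2. With 100 bp on either side it was 9 of 27 (33.3%) in replicate 1, against 4.03%. The ISRE matches at the summit were in Trim30a, Trim30d and Trim25. The PU.1 type string was found in 3 of 27, against 2.21% and 2.04%, and all 3 were the copies Trim5, Trim12a and Trim12c. The CEBP string was found in 6 and 5 of 27 (22.2% and 18.5%), against 2.95% and 2.68%, and the same 3 copies supplied 3 of the matches in each replicate. Such matches in copies are not independent. The NFY string was found in 12 and 11 of 27 (44.4% and 40.7%), against 30.03% and 30.1%. The copies Trim5, Trim12a and Trim12c, and the copies Trim30a and Trim30d, were among them in both replicates, so these matches are not independent either. The ETS string CCGGAAGT was in 0 of 27, against 6.55% and 6.80%, and a count of 0 of 27 has an upper 95% Wilson bound of 12.5%. The SP/KLF string GGGCGG was in 9 and 11 of 27 (33.3% and 40.7%), against 41.9% and 46.7%. These summit shares were not split by CpG class, which matters for some strings. In the start-site window, the CEBP string was in 8.50% of all open genes and 12.5% of those without a CpG-rich promoter. The same shares were 9.43% and 5.14% for the ETS string and 62.8% and 36.8% for the SP/KLF string.

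Distal open regions, with summits over 1 kb from every annotated start site, had a higher mean number around Trim genes than around all genes in each library. The medians did not differ: Trim genes and all genes both had 1 in replicate 1 and 0 in replicate 2. Trim genes had 1.96 distal regions within 50 kb in replicate 1 and 0.809 in replicate 2 (1.38 ± 0.811, SD, n = 2), against 1.17 and 0.433 for all genes (0.801 ± 0.521, SD, n = 2). The direction was the same in both replicates, while the replicates differed widely from each other. At least 1 distal region in both replicates was found for 29 Trim genes (42.6%), against 27.7% of genes. The same direction held among genes not open in both replicates, with 1.80 and 0.756 per Trim gene against 0.858 and 0.309 per such gene. That set includes the 9 Trim genes open in replicate 1 alone, so it is not a set of closed promoters. Neighbouring Trim genes share regions: the regions numbered 102 and 42 when each was counted once, and 24 and 12 of these lay within 50 kb of 2 or more Trim genes. With each region given to the gene of the nearest start site only, the means were 0.735 and 0.279 per Trim gene, against 0.512 and 0.183 per gene. Of the 102 regions in replicate 1, 43 recurred in replicate 2 (42.2%), against 35.0% of all distal regions. The median signal values near Trim genes were 8.66 and 10.3, against 9.38 and 10.5 for all distal regions.

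Trim41 and Trim7, which are neighbours on chromosome 11, had 11 distal regions each in replicate 1 and 4 each in replicate 2. Trim25 had 7 and 3, the strongest at chr11:88993628-88993982 in replicate 1, in no coding gene, with its summit at -5582 bp and signal values of 16.7 and 14.1. Trim6, itself without an IDR promoter peak, had 6 and 4. A pair of them, upstream of Trim6, were among the stronger: chr7:104199891-104200200 with 19.5 and 19.2, and chr7:104205998-104206581 with 19.8 and 18.9. Both lie in no coding gene and also within 50 kb of Trim34a. Trim34a, Trim27 and Trim14 had 6 and 3 each. Trim8 had 7 and 2 with no peak within 1 kb of its own start sites. The strongest distal region near any Trim gene, at chr9:89066757-89067067 in no coding gene, had 22.9 and 20.2 and lay 25946 bp downstream of the start of Trim43b. No list held a promoter peak for Trim43b, where repeated sequence makes that absence uncertain. A region at chr13:104139609-104139967, within an exon of Sgtb and with its summit at -39021 bp from the start of Trim23, had 20.3 and 18.0. Which gene a distal region acts on was not tested.

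**Figure D5:**
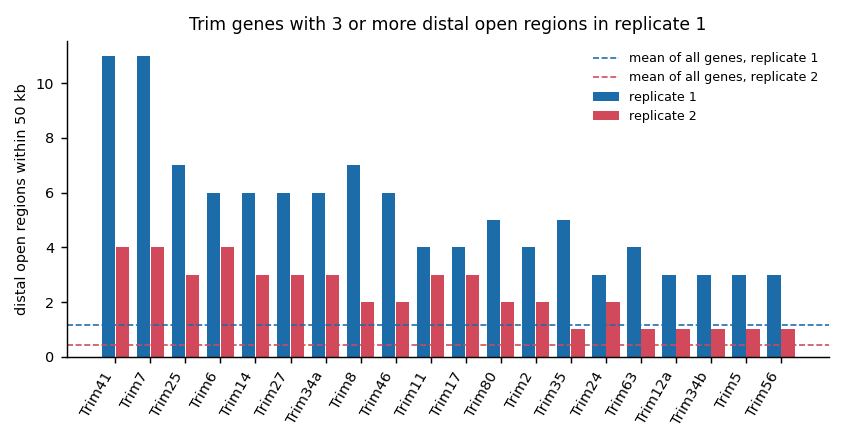
Distal open regions up to 50 kb from the start site, counted for each Trim gene with 3 or more in replicate 1 (blue replicate 1, red replicate 2; dashed lines, the means of 1.17 and 0.433 over all protein-coding genes). Trim41 and Trim7 share nearly all of their 11 regions.

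The partners of TRIM ligases were mostly open. All 6 genes for ubiquitin and E1 enzymes and all 8 listed E2 enzymes were open in both replicates, among them Ube2n and Ube2w, E2 enzymes that work with TRIM5 and TRIM21. Of 10 sensors and adaptors on which TRIM proteins act, 8 were open, including Ifih1 (MDA5), Mavs, Irf3 and Irf7, while Ddx58 (RIG-I) and Tbk1 were open in replicate 1 alone. Of 6 TRIM proteins under other symbols only Mid1 was open in both, and Pml was open in replicate 1 alone. In all 23 of these 30 genes (76.7%) were open, against 39.8% of all genes. CpG-rich promoters made up 17 of the 30, of which 16 were open (94.1%), against 66.8% of CpG-rich genes. Of the other 13, 7 were open (53.8%), against 18.2% of such genes. The list was drawn up with earlier results known.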

How the data were processed

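Peak lists of 2 mouse neutrophil ATAC-seq libraries were used. Per the file headers and labels, the authors made IDR-thresholded and less strict (pseudoreplicated) lists per replicate and a conservative IDR list from both replicates, on mm10. The aligner, the peak caller, their versions, transposase shifting and the handling of multi-mapping reads are not stated in the labels or headers. The deposited signal value per peak is a score with no stated definition, and the deposited −log10 p-values were not printed. Depth is unknown, since no read counts were used.

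Overlapping peaks of a list were merged into regions carrying the highest signal value. The reference, GRCm38.p6 with GENCODE M21, is the same build, and every peak lay within its chromosomes. Coordinates count from 1. Motif strings were matched exactly on both strands. Windows of 600 bases were aligned locally with Biopython 1.88 (match 2, mismatch -2, gap open -4, gap extension -1). Other tools were Python 3.11.15, pandas 2.3.3 and pysam 0.24.0. Wilson intervals (95%) cover counting error over genes only. The overlap steps were tested on simulated peaks.

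Members, gene groups, markers and strings were chosen with earlier results of these data known. Every Trim gene is accounted for. Values are given for the 10 with the highest mean signal, up to 4 open members per group, the 5 with the most distal regions, those open in 1 replicate alone and the chromosome 7 cluster. Other values printed (weak peaks, further distal regions, sequences) were chosen after they were seen. Alternatives varied the list, threshold, replicate, promoter width, start site, overlap and distal window.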

Additional observations from a re-analysis of the deposited data

How the results depend on the processing

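The count of 27 open Trim genes stayed within 1.5 times under every alternative tried. It was 40 in the less strict lists (58.8%, against 49.8% of all genes) and 38 in the conservative list (55.9% against 46.7%). With peaks at or above the median signal value of their list it was 19 (27.9% against 30.4%). With 2.5 kb on either side of the start site it was 30 (44.1% against 41.5%). At the 5′-most start site alone it was 25 (36.8% against 36.5%). With at least 100 bp of overlap between region and promoter window it was 27 (39.7% against 39.6%). It was 27 without replicate 1 (39.7% against 40.3%) and 36 without replicate 2 (52.9% against 47.1%). The antiviral family had 9 to 11 of 12 genes open under these settings, against 30.4% to 49.8% of all genes.

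The mean of 1.38 distal regions per Trim gene moved to 2.74 in the less strict lists, 2.29 within 100 kb and 0.507 with each region given to the nearest gene only, and ranged from 0.809 to 1.96 when either replicate was left out. The ISRE share at the summit, 11.1%, moved to 33.3% with 100 bp on either side and 7.89% in the conservative list, and was 11.1% without either replicate. The cause of these shifts, beyond the wider windows and longer lists themselves, was not tested. Of the 27 promoter signal values, 19 moved by more than 1 SD between replicates in the conservative list.

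The minimum overlap of 100 bp between a region and the promoter window was not run for the distal mean, which is counted from summits. No paired analysis was possible because there is 1 group. With 2 libraries of unknown depth, peaks missing from replicate 2 cannot be told apart from shallower sequencing.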
